A study of Mus musculus with 8 samples.

Results

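The comparison described here asks whether ganciclovir (GANC) changed the transcripts of the cells labelled HSVTK in another way than those of the cells labelled Control. For each gene, the response to GANC against the solvent DMSO was measured in either cell group, and the Control response was subtracted from the HSVTK response on the log2 scale. All 8 of the 8 libraries of the series enter it. They are RNA sequencing libraries from mouse embryonic stem cells, with 2 libraries in each of 4 groups: Control cells with DMSO, Control cells with GANC, HSVTK cells with DMSO and HSVTK cells with GANC. HSVTK cells carry a 2C::HSVTK reporter, in which a promoter of the 2-cell-like state drives the thymidine kinase of herpes simplex virus. The sources used here do not give the strain, the dose, the time, what the Control cells carry or how many clones stand behind either cell group.

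Mouse embryonic stem cells are derived from the early embryo and keep the ability to form every tissue of the body. A few of them at a time switch on genes of the 2-cell embryo and are then called 2C-like. Viral thymidine kinase adds a phosphate to the nucleoside analogue ganciclovir, which cellular kinases then turn into a form that blocks DNA synthesis. Cells without the viral enzyme are largely spared. A difference of responses is an interaction. It compares 2 changes and says nothing by itself about which group is higher, so the levels in all 4 groups are given with it.

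GANC is meant to remove 2C-like cells from the HSVTK line, yet 2C genes were higher with GANC than with DMSO in the libraries labelled HSVTK, as given below. Whether the labels of these libraries hold was not tested. Groups are named as labelled, "HSVTK response" stands for the libraries labelled HSVTK GANC against those labelled HSVTK DMSO, and the labels were used as given. The sign of every HSVTK response rests on them, and so do the sign, size and call of every difference and the pattern it is put under. If the DMSO and GANC labels of the HSVTK libraries were exchanged, each HSVTK response would change its sign. The difference would then be 1.67 in place of -5.88 for Ndufa4l2, and the list medians 0.47 in place of -1.01 for HIF targets, 0.26 in place of -0.73 for glycolysis, 0.33 in place of -0.69 for cholesterol synthesis, -0.16 in place of 0.21 for p53 targets and -0.903 in place of 1.29 for 2C genes. Of 770 genes with both responses called, 654 had opposite signs and 116 the same sign, and these numbers would change places. These values were added after seeing the data and carry no test. Libraries held 29704460 to 34184475 counts. The 2 libraries labelled HSVTK GANC had 3.56 and 3.45% of their counts on mitochondrial genes, against 2.88 to 3.17% in the other 6, and 25146 and 25656 genes with a count, against 23777 to 24772. What part these had in the results was not tested. Whether replicates were grown as separate cultures is not stated, and p-values therefore cover the spread between libraries, which may be technical.

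Stem cell markers were abundant in all 4 groups. The summed level of 8 stem cell markers was 4511 to 5044 CPM (counts scaled to library size with TMM factors) as group means. Markers of other cell types were weaker: 19 trophectoderm markers summed to 71.01 to 92.8 CPM, 14 neuroectoderm markers to 151.9 to 203.4, and 19 mesoderm markers to 16.4 to 22.2. The 20 fibroblast markers summed to 757 to 895 CPM, but 14 of them were below 1 CPM in every library. The 23 primitive endoderm markers summed to 936 to 1187 CPM. In bulk RNA, fewer cells of a type and less RNA per cell cannot be told apart.

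Of 17976 genes tested with edgeR's quasi-likelihood test, 4595 (25.6%) responded differently in the 2 cell groups at a Benjamini-Hochberg adjusted p below 0.05. The response was higher in HSVTK than in Control cells for 2087 of them (11.6% of the tested genes) and lower for 2508 (14.0%). The median difference over all tested genes was 0.02. The difference was at least 2-fold for 1414 genes, 607 higher and 807 lower, and at least 4-fold for 420. Precision followed depth: among genes with a mean of 100 CPM or more, 36.4% were called and the median SE was 0.088, and below 1 CPM 6.16% were called with a median SE of 0.97. In 1566 genes (8.71%), 654 higher (3.64%) and 912 lower (5.07%), the call and its direction held in each of the analyses that the naming rule required. Against a 1.5-fold difference 815 were called and 1981 with limma on log2(FPKM + 1).

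Most of the called differences came from genes whose HSVTK response alone was called. These were 2888 of the 4595, or 62.8%. In 452 genes only the Control response was called, in 589 neither was, and in 12 both were called in the same direction with different sizes. A further 654 genes moved in opposite directions, both responses being called. In 428 of these the gene was lower with GANC than with DMSO in HSVTK cells and higher in Control cells, and in 226 the reverse. For comparison, GANC against DMSO changed 5119 genes in HSVTK cells (28.5%, with 13.3% higher and 15.2% lower) and 1453 in Control cells (8.08%, with 4.73% higher and 3.35% lower). Leaving out HSVTK DMSO replicate 1 or 2 gave 3380 or 3313 changed genes in HSVTK cells. Control cells had 592, 433 or 728 of them without Control DMSO replicate 1, Control DMSO replicate 2 or Control GANC replicate 2. The opposed genes depended on the Control libraries: without Control DMSO replicate 2 there were 185 and 61 of them, without Control DMSO replicate 1 214 and 90, and without Control GANC replicate 2 285 and 139. Leaving out HSVTK DMSO replicate 1 or 2 lowered the second number to 130 or 124. With limma on log2(FPKM + 1) there were 14 and 2.

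**Figure D1:**
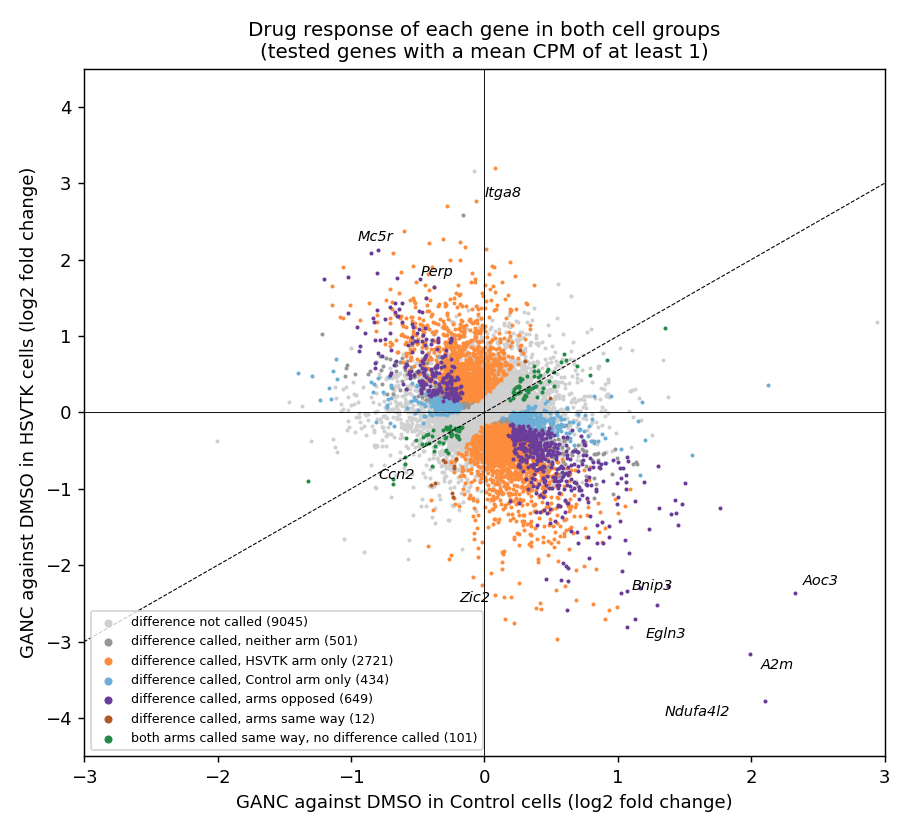
Log2 fold change of GANC against DMSO in Control cells (horizontal) and in HSVTK cells (vertical) for the 13463 tested genes with a mean of at least 1 CPM. Each point is a gene coloured by its pattern, with the number of genes in the key, and the dashed line marks equal responses. Of the opposed genes, 649 are plotted, and Ndufa4l2, A2m, Aoc3, Egln3 and Bnip3 lie at the lower right.

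The group means of the opposed genes varied within what their definition allows. Among the 428 opposed genes with a lower HSVTK response, 319 had their highest mean in HSVTK DMSO and 109 in Control GANC, and 244 had their lowest mean in Control DMSO and 184 in HSVTK GANC. Of them, 212 crossed over: they were called higher in HSVTK than in Control cells under DMSO and called lower under GANC. Among the 226 opposed genes with a higher HSVTK response, 176 had their lowest mean in HSVTK DMSO and 142 their highest in Control DMSO, and 100 crossed over. The cell groups also differed before the drug: 6060 genes (33.7%) were called between HSVTK and Control cells under DMSO and 4685 (26.1%) under GANC. A difference of responses is thus also a difference of these 2 gaps, and the data do not say which of the 4 groups departs from the rest.

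The strongest lower responses were taken among genes with a mean of at least 1 CPM that met the naming rule, and all 12 of them were highest in HSVTK DMSO. More negative differences outside the rule, down to -13.23, are not named. Ndufa4l2 (ENSMUSG00000040280), a mitochondrial protein induced by low oxygen, stood at 2.8 and 2.63 CPM with DMSO and 12.7 and 10.6 with GANC in the Control cells, and at 28.1 and 29.03 with DMSO and 1.27 and 2.87 with GANC in those labelled HSVTK. It was low in Control DMSO and HSVTK GANC, and the libraries of the other 2 groups were all above them. Its log2 difference was -5.88 ± 0.27 (SE, adjusted p = 1.99e-15), the sum of an HSVTK response of -3.77 and a Control response of 2.102 with its sign turned. A2m (ENSMUSG00000030111), a broad protease inhibitor, stood at 2.77 and 2.8 CPM with DMSO and 12.8 and 9.35 with GANC in the Control cells, and at 48.98 and 51.02 with DMSO and 3.65 and 7.5 with GANC in those labelled HSVTK. HSVTK DMSO was the highest group and did not overlap any other, and the difference was -5.15 ± 0.27 (SE, adjusted p = 3.32e-14). The amine oxidase Aoc3 had a difference of -4.69 ± 0.58 (SE, adjusted p = 6.45e-07), at 0.185 to 2.8 CPM. The meiotic kinase Aurkc stood at 7.08 and 5.61 CPM with DMSO and 13.1 and 13.6 with GANC in the Control cells, and at 18.5 and 20.9 with DMSO and 2.35 and 3.26 with GANC in those labelled HSVTK, a difference of -3.88 ± 0.22 (SE, adjusted p = 1.24e-13). Egln3 and Pgm1, also among them, are given with their lists. The others were Grin1, a subunit of NMDA-type glutamate receptors, at -3.82 ± 0.30 (SE), the collagen cross-linking enzyme Loxl2 at -3.65 ± 0.35 (SE), the coatomer subunit Copz2 at -3.61 ± 0.69 (SE), Cdc42ep2, which binds the GTPase Cdc42, at -3.54 ± 0.61 (SE), the synuclein Sncb at -3.52 ± 0.53 (SE) and the transcription factor Irf8 at -3.46 ± 0.51 (SE). The rule required the 4 HSVTK library differences to lie below all 4 of Control, as 24.0% of all tested genes did, and nothing is read from it.

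Targets of the hypoxia-inducible factors (HIF) responded lower in the HSVTK libraries than in the Control ones. HIF proteins accumulate when oxygen or prolyl hydroxylase activity is low and raise genes for oxygen sensing, mitophagy and glucose use through the short DNA element ACGTG. Of 35 tested targets outside glycolysis, 24 were called lower and 1 higher, against 14.0 and 11.6% of all genes, with a median difference of -1.01. Their median HSVTK response was -0.76 and their median Control response 0.32, and 14 of them were opposed. Egln3 (ENSMUSG00000035105), a prolyl hydroxylase that marks HIF for destruction and is itself a HIF target, stood at 14.4 and 14.8 CPM with DMSO and 31.5 and 32.3 with GANC in the Control cells, and at 53.9 and 50.9 with DMSO and 7.39 and 8.67 with GANC in those labelled HSVTK. The libraries of every group were separate from those of every other, and the difference was -3.83 ± 0.14 (SE, adjusted p = 1.8e-17). Bnip3 (ENSMUSG00000078566), a receptor for the removal of mitochondria, stood at 40.4 and 43.6 CPM with DMSO and 93.7 and 77.1 with GANC in the Control cells, and at 193 and 181 with DMSO and 32.6 and 39.7 with GANC in those labelled HSVTK. Control DMSO and HSVTK GANC lay close together at the bottom, and the difference was -3.396 ± 0.13 (SE, adjusted p = 1.8e-17). The main oxygen sensor Egln1 had a difference of -2.69 ± 0.15 (SE, adjusted p = 6.39e-14). Its levels ran from 10.1 CPM in HSVTK GANC to 42.4 in HSVTK DMSO. Further called targets were Bhlhe40 (-2.61), the collagen prolyl hydroxylase subunits P4ha1 (-1.85) and P4ha2 (-1.79), the adenylate kinase Ak4 (-1.27), the oxidase Ero1a (-1.16), Bnip3l (-0.76) and the growth factor Vegfa (-0.57). The exception was the histone demethylase Kdm3a at 0.61. Not called were, among others, Car9 (-0.29) and Hilpda (0.22).

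The promoters of 4 of these genes and glycolysis genes are shown because the genes moved together and all 4 windows hold the core letters of the hypoxia response element, ACGTG on either strand, in capitals. The windows are the 250 bases before the gene start in RefSeq on GRCm38.p6, which is not the build of the counts, 5′ to 3′ on the gene's strand. In Bnip3 the match on the opposite strand overlaps the match on the gene's own strand, which gives the 6 capitals.
Egln3, chr12:54203875-54204124, minus strand: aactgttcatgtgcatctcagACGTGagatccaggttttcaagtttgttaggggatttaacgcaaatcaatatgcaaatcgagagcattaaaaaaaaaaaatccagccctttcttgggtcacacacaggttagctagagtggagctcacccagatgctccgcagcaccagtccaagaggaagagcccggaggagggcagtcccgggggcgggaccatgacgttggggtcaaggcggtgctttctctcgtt
Bnip3, chr7:138909507-138909756, minus strand: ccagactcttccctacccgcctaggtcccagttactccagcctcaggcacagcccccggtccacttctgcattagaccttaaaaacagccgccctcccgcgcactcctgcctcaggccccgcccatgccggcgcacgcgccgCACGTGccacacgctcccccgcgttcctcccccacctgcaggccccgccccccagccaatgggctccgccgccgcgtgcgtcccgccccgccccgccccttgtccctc
Slc16a3, chr11:120948817-120949066, plus strand: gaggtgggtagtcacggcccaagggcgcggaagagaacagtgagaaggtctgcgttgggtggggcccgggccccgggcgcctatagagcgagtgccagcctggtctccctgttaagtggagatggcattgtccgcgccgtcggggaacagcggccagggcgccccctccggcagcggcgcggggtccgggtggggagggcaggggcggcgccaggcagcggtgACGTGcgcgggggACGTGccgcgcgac
Slc2a1, chr4:119108495-119108744, plus strand: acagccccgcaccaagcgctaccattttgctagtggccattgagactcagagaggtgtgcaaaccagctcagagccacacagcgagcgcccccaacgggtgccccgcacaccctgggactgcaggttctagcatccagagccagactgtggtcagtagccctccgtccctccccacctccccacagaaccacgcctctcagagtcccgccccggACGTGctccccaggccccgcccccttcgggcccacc

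ACGTG stood on either strand in 20 of 40 windows (50%) of the HIF target list, which matched 29 genes by symbol, in 17 of 39 windows (43.6%) of the glycolysis list with 26 genes, and in 16.6% of all 32851 windows. On the gene's own strand alone it stood in 30% and 28.2% of those windows and in 11.3% of all. The sterol regulatory element TCACNCCAC stood in 1 of 20 windows of the cholesterol list with 17 genes and in 1.05% of all windows. It stood in 2 of 39 glycolysis windows (5.13%), a share like the 5% of the cholesterol list. TGATGNAA, a core of the C/EBP and ATF response element, stood in 8 of 35 windows (22.9%) of the ATF4 target list with 31 genes and in 3.45% of all. The ATF4 list also held ACGTG in 10 of 35 windows (28.6%) and the cholesterol list in 4 of 20 (20%). Genes can have several windows, and a match describes the letters and not a bound site.

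Genes of glucose uptake and of the breakdown of glucose to lactate had a lower response in HSVTK cells as well. Of 28 tested genes, 22 were called lower and 0 higher (78.6% lower and 0% higher, against 14.0 and 11.6% of all genes), and 16 were opposed. The median difference was -0.73, from -0.57 in HSVTK and 0.22 in Control cells. The lactate exporter Slc16a3 (ENSMUSG00000025161) stood at 76.2 and 72.96 CPM with DMSO and 142 and 144 with GANC in the Control cells, and at 217 and 222 with DMSO and 67.4 and 74.2 with GANC in those labelled HSVTK, and its difference was -2.57 ± 0.09 (SE, adjusted p = 1.8e-17). The glucose transporter Slc2a1 (ENSMUSG00000028645) stood at 382 and 379 CPM with DMSO and 549.5 and 565 with GANC in the Control cells, and at 615 and 613 with DMSO and 264 and 266 with GANC in those labelled HSVTK. It was lowest in HSVTK GANC, no 2 groups overlapped, and the difference was -1.76 ± 0.07 (SE, adjusted p = 2.88e-16). Another transporter, Slc2a3, stood at 553 and 549.6 CPM with DMSO and 644 and 618 with GANC in the Control cells, and at 962 and 948 with DMSO and 417 and 437 with GANC in those labelled HSVTK, with a difference of -1.36 ± 0.07 (SE, adjusted p = 4.99e-14). Pgm1 (ENSMUSG00000025791), which interconverts glucose phosphates, differed by -3.41 ± 0.16 (SE, adjusted p = 1.94e-15). Called with lower differences were also Aldoc (-2.77), Hk1 (-1.44), Tpi1 (-1.44), Pfkl (-1.43), Pgk1 (-1.34) and Pdk1 (-0.83), whose product holds back pyruvate oxidation. Gapdh (0.06), which has many pseudogenes, and the second Ensembl gene named Aldoa were not called. Outside these lists, the strongest lower differences among genes with a mean of at least 100 CPM included the uridine phosphorylase Upp1 (-1.71 ± 0.09 (SE)), the growth factor binding protein Igfbp2 (-1.605 ± 0.08 (SE)) and the lactate dehydrogenase subunit Ldhb (-1.47 ± 0.10 (SE)).

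A separate list of 10 HIF subunits and regulators, which holds neither Egln1 nor Egln3, had differences of -0.46 to 0.697, with 4 called higher and 2 lower. The shares were 40% higher and 20% lower, against 11.6 and 14.0% of all genes, in a list of few members. Hif1a, the oxygen-regulated subunit, stood at 105 and 106 CPM with DMSO and 92.5 and 89.8 with GANC in the Control cells, and at 77.6 and 78.1 with DMSO and 99.6 and 92.5 with GANC in those labelled HSVTK, a difference of 0.51 ± 0.09 (SE, adjusted p = 0.000147). Epas1, which encodes HIF-2alpha, differed by 0.63 ± 0.12 (SE, adjusted p = 0.000348), and Cited2, which competes with HIF for its coactivator, by 0.697 ± 0.13 (SE, adjusted p = 0.000135). The partner subunit Arnt differed by -0.44 ± 0.09 (SE, adjusted p = 0.000659) and the coactivator Ep300 by -0.28. Levels of HIF protein were not measured.

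**Figure D2:**
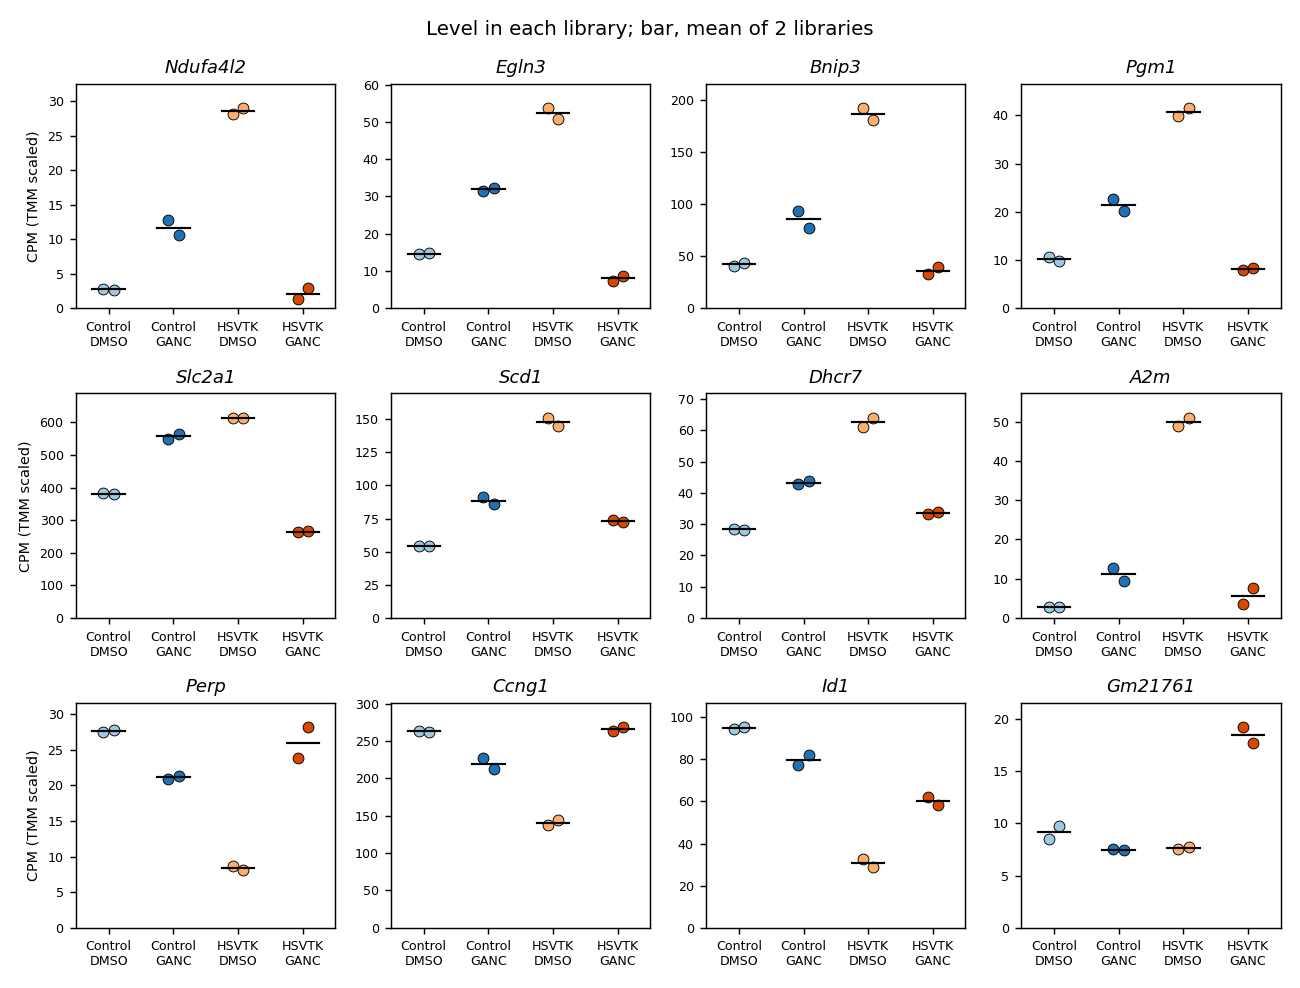
Level of 12 genes in each of the 8 libraries, as CPM with TMM scaling on a linear axis from 0. Points are libraries and bars are means of 2. Ndufa4l2, Egln3, Bnip3, Pgm1, Scd1, Dhcr7 and A2m are highest in HSVTK DMSO, and Perp, Ccng1 and Id1 are lowest there. Gm21761, a 2C gene, is highest in HSVTK GANC.

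Cholesterol synthesis followed the same direction, with 20 of 25 genes called lower and 1 higher (the isomerase Ebp, 0.42). The shares were 80% lower and 4% higher, against 14.0 and 11.6% of all genes. The median difference was -0.69 (-0.54 in HSVTK, 0.14 in Control cells). Genes of cholesterol synthesis are switched on by the SREBP factors when sterols run low. Dhcr7, which catalyses the last step to cholesterol, stood at 28.4 and 28.2 CPM with DMSO and 42.8 and 43.8 with GANC in the Control cells, and at 61.2 and 64.1 with DMSO and 33.3 and 33.96 with GANC in those labelled HSVTK. Control DMSO was the lowest group and HSVTK DMSO the highest, and the difference was -1.51 ± 0.11 (SE, adjusted p = 6.89e-11). The SREBP-retaining protein Insig1 differed by -1.44 ± 0.10 (SE, adjusted p = 1.37e-11), the factor Srebf2 by -1.04 ± 0.09 (SE, adjusted p = 8.22e-10) and the demethylase Cyp51 by -1.01 ± 0.09 (SE, adjusted p = 3.01e-09). Of 17 fatty acid genes 10 were called lower and 0 higher (58.8% lower and 0% higher), with a median of -0.42. The desaturase Scd1 stood at 54.2 and 54.4 CPM with DMSO and 91.1 and 85.99 with GANC in the Control cells, and at 151 and 145 with DMSO and 74.1 and 72.01 with GANC in those labelled HSVTK, a difference of -1.73 ± 0.10 (SE, adjusted p = 8.56e-14), and the desaturases Scd2 (-1.22 ± 0.07 (SE)), Fads1 (-1.21 ± 0.11 (SE)) and Fads2 (-1.66 ± 0.11 (SE)) were lower too. Fatty acid synthase Fasn, at -0.05, was not called.

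Targets of p53 had a higher response in HSVTK cells. The protein p53 is stabilised by DNA damage and other stress and raises genes for cell cycle arrest, repair and death. Of 40 genes in the list, 19 were called higher and 2 lower (Fdxr, -0.57, and Sulf2, -0.28). The shares were 47.5% higher and 5% lower, against 11.6 and 14.0% of all genes. The median difference was 0.21 (0.24 in HSVTK, 0.017 in Control cells). The list does not hold Ddit4, another p53 target, which was called lower and is given with the ATF4 targets. Perp (ENSMUSG00000019851), a membrane protein of p53-driven death, stood at 27.4 and 27.7 CPM with DMSO and 20.97 and 21.4 with GANC in the Control cells, and at 8.63 and 8.12 with DMSO and 23.8 and 28.2 with GANC in those labelled HSVTK. HSVTK DMSO lay below the other 3 groups, and the difference was 2.02 ± 0.15 (SE, adjusted p = 6.89e-11). Ccng1 (ENSMUSG00000020326), a cyclin that feeds back on p53, stood at 264 and 262 CPM with DMSO and 227 and 212 with GANC in the Control cells, and at 138 and 144 with DMSO and 263 and 268 with GANC in those labelled HSVTK, a difference of 1.18 ± 0.08 (SE, adjusted p = 1.6e-11). The adenylate kinase Ak1 (0.97 ± 0.11 (SE)), the kinase Plk2 (1.04 ± 0.13 (SE)), Trp73 (1.03), Bax (0.45) and Pmaip1 (0.48) were called higher. Mdm2, which degrades p53, was at 0.400 ± 0.09 (SE, adjusted p = 0.00175) and lost its call with limma on log2(FPKM + 1), at an adjusted p of 0.0758. Not called were Trp53 itself at 0.17 (adjusted p = 0.162, 95% interval -0.01 to 0.36) and the arrest gene Cdkn1a at 0.25 (adjusted p = 0.164, 95% interval -0.02 to 0.51). Among 23 apoptosis regulators, 3 were called higher and 7 lower. The higher share was near the 11.6% of all genes, and the lower share was 30.4%, against 14.0% of all genes. The executioner caspase Casp6 differed by -1.72 ± 0.26 (SE), the BH3 protein Bmf by -1.16 ± 0.14 (SE) and the survival protein Mcl1 by -0.35 ± 0.07 (SE). Bid (0.56 ± 0.11 (SE)), Bcl2l1 (0.395) and Xiap (0.44) were higher.

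**Figure D3:**
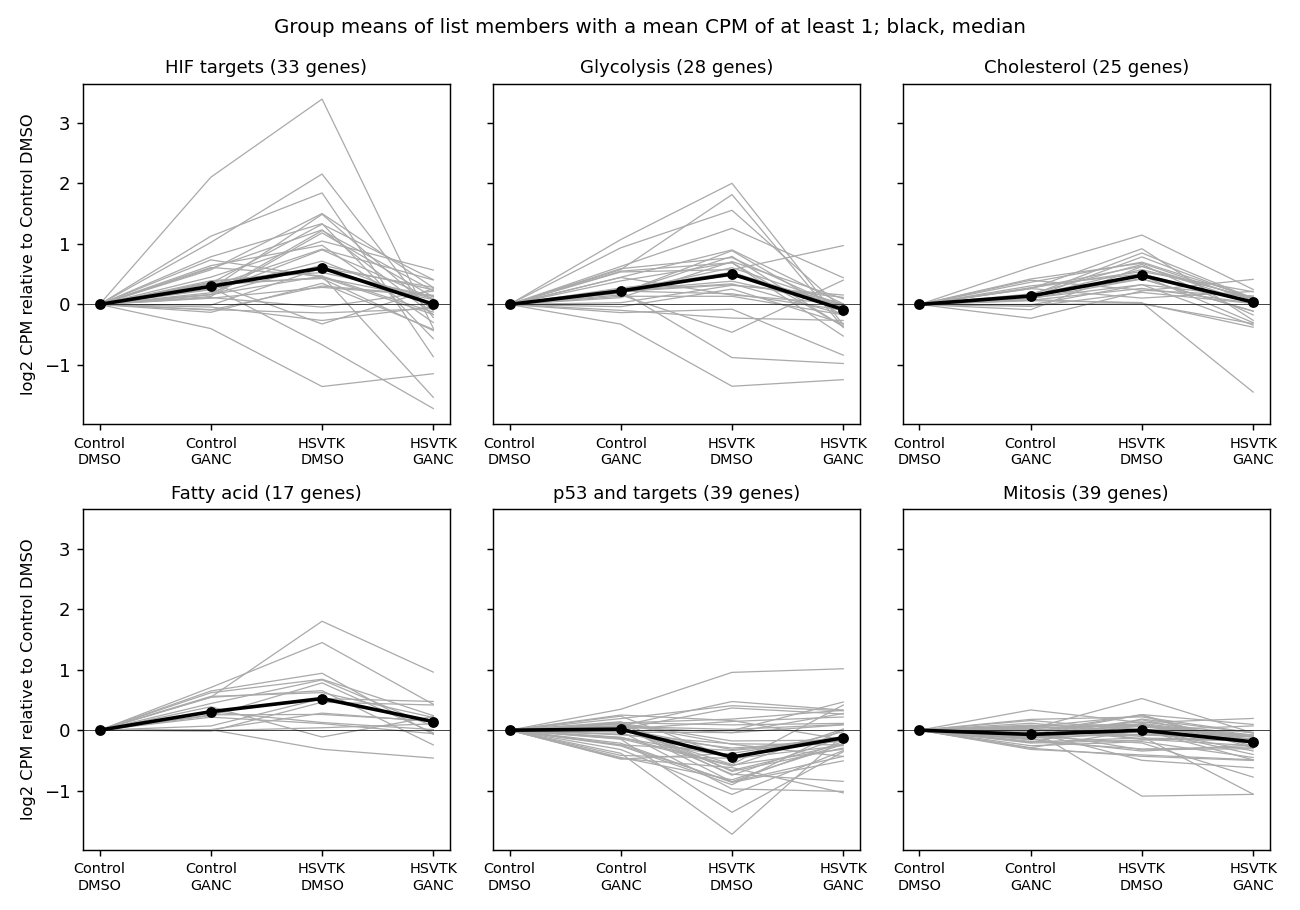
Group means of list members with a mean of at least 1 CPM, as log2 relative to Control DMSO. Grey lines are genes and the black line is the median. In the HIF, glycolysis, cholesterol and fatty acid lists the median rises from Control DMSO to Control GANC and to HSVTK DMSO (0.602, 0.503, 0.48 and 0.523), and HSVTK GANC returns to 0.0033, -0.0845, 0.0384 and 0.142. In the p53 list HSVTK DMSO is lowest at -0.445.

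Genes of the 2C-like state had a higher response in HSVTK cells, where a promoter of that state drives the viral kinase. Of 27 tested, 13 were called higher and 0 lower (48.1% higher and 0% lower, against 11.6 and 14.0% of all genes). The median difference was 1.29, with 1.07 in HSVTK and -0.19 in Control cells. Only 17 members had a mean of at least 1 CPM. With the test limited to genes at that level 11 members were called and the median was 1.11. With limma on log2(FPKM + 1) the median was 0.48 and 7 were called, and 5 were called in every analysis that the naming rule required. No member was called in Control cells. Zscan4c (ENSMUSG00000054272), which acts in the 2-cell embryo and in telomere lengthening, stood at 5.23 and 4.1 CPM with DMSO and 4.997 and 4.14 with GANC in the Control cells, and at 4.7 and 3.59 with DMSO and 8.53 and 8.88 with GANC in those labelled HSVTK, and the 2 HSVTK GANC libraries lay above all others. Its difference was 1.102 ± 0.26 (SE, adjusted p = 0.00208), and it lost the call with limma on log2(FPKM + 1), at an adjusted p of 0.058. Zscan4a stood at 7.39 and 7.18 CPM with DMSO and 6.63 and 4.68 with GANC in the Control cells, and at 6.67 and 7.39 with DMSO and 13.4 and 16.1 with GANC in those labelled HSVTK, a difference of 1.43 ± 0.22 (SE, adjusted p = 2.02e-05). The difference of Zscan4f was 1.202 ± 0.30 (SE, adjusted p = 0.0035). For the eIF1A-like Gm21761 it was 1.56 ± 0.19 (SE, adjusted p = 3.25e-07). Gm4340 differed by 2.11 ± 0.46 (SE). Zscan4d, at 0.61 (adjusted p = 0.0642, 95% interval 0.11 to 1.097), and Zfp352, at 2.29 (adjusted p = 0.102, 95% interval 0.19 to 4.39), were not called. Many of these are near-identical copies, so values of a copy are uncertain. Of 35 repressors of that state, 4 were called higher and 5 lower (11.4% higher and 14.3% lower), close to the background. Among them were the chromatin assembly subunit Chaf1b (-0.64 ± 0.09 (SE)) and the demethylase Kdm1a (-0.45 ± 0.08 (SE)), with Rif1 (0.42) and Atrx (0.62) higher.

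Of the 3 core pluripotency factors, Sox2 alone was called. Pou5f1 was at -0.02 (adjusted p = 0.895, 95% interval -0.18 to 0.14) and Nanog at 0.04 (adjusted p = 0.752, 95% interval -0.11 to 0.19). Sox2 stood at 428 and 437 CPM with DMSO and 488 and 493 with GANC in the Control cells, and at 439 and 448 with DMSO and 371 and 343 with GANC in those labelled HSVTK, a difference of -0.495 ± 0.08 (SE, adjusted p = 1.83e-05). Of 29 naive pluripotency genes, 5 were called higher and 12 lower (17.2% higher and 41.4% lower, against 11.6 and 14.0% of all genes). The LIF coreceptor Il6st differed by -0.89 ± 0.11 (SE), the factor Klf4 by -0.62 ± 0.10 (SE) and Tbx3 by -0.46 ± 0.10 (SE), and Jam2 by 0.51 ± 0.08 (SE). The formative and primed genes, which mark cells leaving the naive state, had 11 of 22 called lower and 2 higher (9.09% higher and 50% lower), with a median of -0.32. Zic5 stood at 23.4 and 23.6 CPM with DMSO and 33.8 and 30.8 with GANC in the Control cells, and at 61.1 and 65.2 with DMSO and 13.2 and 14.7 with GANC in those labelled HSVTK, and Zic2 at 26.2 and 28.2 CPM with DMSO and 31.7 and 33.5 with GANC in the Control cells, and at 64.3 and 64.9 with DMSO and 14.3 and 13.3 with GANC in those labelled HSVTK. In both, HSVTK DMSO was highest and HSVTK GANC lowest, and the differences were -2.64 ± 0.13 (SE, adjusted p = 1.07e-14) and -2.49 ± 0.13 (SE, adjusted p = 1.67e-14). The WNT effector Lef1 differed by -2.66 ± 0.17 (SE, adjusted p = 1.85e-12), the methyltransferase Dnmt3a by -1.06 ± 0.09 (SE, adjusted p = 2.33e-09) and the homeobox factor Otx2 by -1.57.

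Of 18 Nodal and BMP genes, 9 were called lower and 5 higher (27.8% higher and 50% lower, against 11.6 and 14.0% of all genes). On the Nodal side the inhibitor Lefty1 (-1.36 ± 0.10 (SE)), its coreceptor Tdgf1 (-0.94 ± 0.07 (SE)), Smad7 (-0.84) and Nodal (-0.33) were lower. On the BMP side Id1 stood at 94.5 and 95.2 CPM with DMSO and 77.4 and 82.2 with GANC in the Control cells, and at 32.6 and 28.7 with DMSO and 62.3 and 58.2 with GANC in those labelled HSVTK, a difference of 1.23 ± 0.11 (SE, adjusted p = 1.86e-09). Id2 (0.56) and Bmp4 (0.33) were also higher, Id3 (-0.38) and Smad6 (-0.998) were lower, and Gdf3 was at 0.84 ± 0.09 (SE). Of 18 WNT genes 2 were higher and 5 lower (11.1% higher and 27.8% lower), the higher share being near that of all genes, among them Tcf7 (-0.92 ± 0.14 (SE)) and the receptor Fzd7 (-0.49 ± 0.10 (SE)) lower and the secreted WNT inhibitor Notum (0.62 ± 0.12 (SE)) higher. Of 22 immediate early and ERK feedback genes 1 was higher and 8 lower (4.54% higher and 36.4% lower), led by Egr1 at 33.4 and 28.9 CPM with DMSO and 34.1 and 34.1 with GANC in the Control cells, and at 52.2 and 53.6 with DMSO and 13.2 and 14.1 with GANC in those labelled HSVTK, a difference of -2.08 ± 0.13 (SE, adjusted p = 1.49e-12).

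Shares in the marker lists are read against the 11.6% higher and 14.0% lower of all tested genes, and with so few members several are near them. Primitive endoderm had 2 of 21 called higher and 5 lower (9.52% higher and 23.8% lower), with the basement membrane genes Nid2 (-0.68 ± 0.08 (SE)) and Lamb1 (-0.87 ± 0.12 (SE)) lower. Its median difference was 0.03, and the 2 members called higher did not meet the naming rule. Mesoderm had 3 of 14 higher and 2 lower (21.4% higher and 14.3% lower). Of 7 neuroectoderm genes 2 were higher and 1 lower (28.6% higher and 14.3% lower). Tubb3 at 0.48 ± 0.10 (SE) was higher and Msi1 at -1.86 ± 0.16 (SE) lower. Trophectoderm had 0 of 15 higher and 4 lower (0% higher and 26.7% lower), with Tfap2c at -1.07 ± 0.13 (SE) and Krt19 at -2.62 ± 0.37 (SE). Of 9 fibroblast genes 0 were higher and 3 lower (0% higher and 33.3% lower), including fibronectin Fn1 (-0.700 ± 0.07 (SE)). The summed fibroblast markers averaged 763 CPM with DMSO and 883 with GANC in Control cells, and 895 and 757 in those labelled HSVTK. These sums are higher in Control GANC and HSVTK DMSO, as the HIF, glycolysis and cholesterol medians are, and their part in those results was not tested. Among 29 germline genes, 3 were higher and 8 lower (10.3% higher and 27.6% lower). The meiotic entry gene Stra8 stood at 6.77 and 10.1 CPM with DMSO and 13.1 and 12.7 with GANC in the Control cells, and at 63.6 and 64.2 with DMSO and 10.7 and 10.5 with GANC in those labelled HSVTK, a difference of -3.21 ± 0.18 (SE, adjusted p = 6.89e-14). The cohesins Stag3 (-0.68 ± 0.11 (SE)) and Smc1b (-1.25 ± 0.23 (SE)) were lower. Imprinted genes had 6 of 31 called in each direction (19.4% higher and 19.4% lower). The receptor Igf2r stood at -0.88 ± 0.11 (SE) and Grb10 at 0.39 ± 0.09 (SE). Grb10 levels were 43.6 to 48.7 CPM in Control cells and 449.6 to 572 in HSVTK cells.

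**Figure D4:**
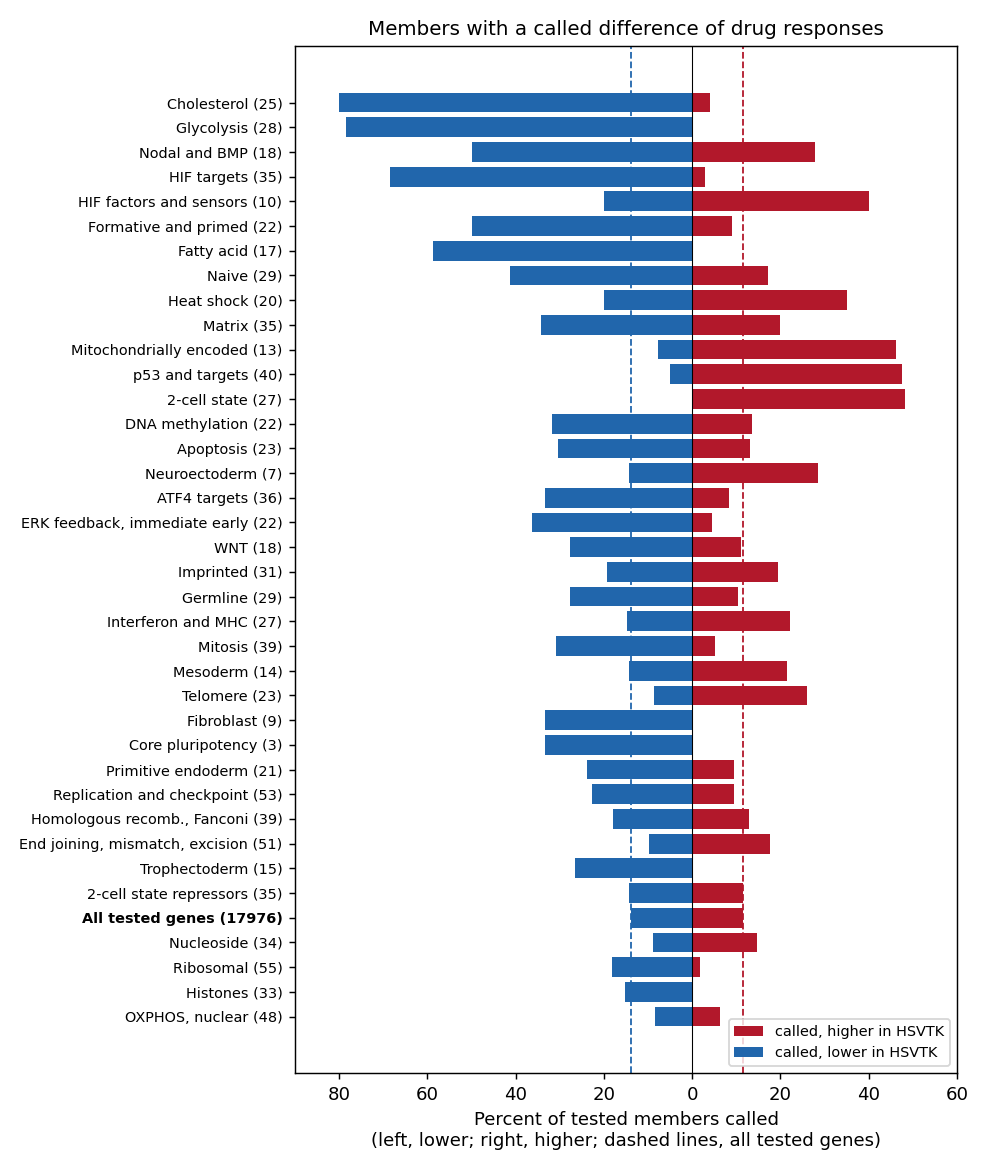
Share of tested members of 37 gene lists, and of all tested genes (bold), with a called difference of responses, in percent, lower to the left and higher to the right. Dashed lines mark the 14.0 and 11.6% of all tested genes. Cholesterol, glycolysis, HIF target and fatty acid lists reach 58.8 to 80% lower, and the 2-cell state and p53 lists 48.1 and 47.5% higher.

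Lists of DNA repair and cell cycle genes had 27.5 to 35.9% of their members called, against 25.6% of all genes (11.6% higher and 14.0% lower). Of 39 homologous recombination and Fanconi genes 5 were called higher and 7 lower (12.8% higher and 17.9% lower). Rad52 (0.83 ± 0.14 (SE)) and the nuclease subunit Eme1 (0.59 ± 0.11 (SE)) were higher, and Fance (-0.81 ± 0.12 (SE)) and Bard1 (-0.41 ± 0.11 (SE)) lower. Of 51 end joining, mismatch and excision repair genes 9 were higher and 5 lower (17.6% higher and 9.8% lower). The excision nuclease Ercc4 (1.04 ± 0.14 (SE)) and the end joining factor Nhej1 (0.902 ± 0.18 (SE)) were higher, and Mad2l2 (-0.98 ± 0.15 (SE)) and the ligase Lig1 (-0.502 ± 0.09 (SE)) lower. Of 53 replication and checkpoint genes 5 were higher, led by the damage kinase Atm at 0.84 ± 0.11 (SE, adjusted p = 2.1e-06), and 12 lower, among them E2f1 (-0.81 ± 0.11 (SE)), Mcm6 (-0.42 ± 0.08 (SE)) and Wee1 (-0.48 ± 0.09 (SE)). These are 9.43% higher and 22.6% lower, and without HSVTK DMSO replicate 2 the number of lower genes was 7. Mitosis genes had 2 of 39 higher and 12 lower (5.13% higher and 30.8% lower), with a median of -0.13. In the HSVTK response alone 20 of them were lower and 0 higher. Securin, Pttg1, stood at 67.5 and 69.03 CPM with DMSO and 66.6 and 72.8 with GANC in the Control cells, and at 62.9 and 64.1 with DMSO and 31.3 and 34.3 with GANC in those labelled HSVTK, a difference of -0.98 ± 0.11 (SE, adjusted p = 9.5e-08). It was lower in HSVTK GANC than in all other libraries. The cyclin Ccnb2 differed by -0.59 ± 0.08 (SE) and the centromere histone Cenpa by -0.39 ± 0.08 (SE). The count of 12 was 7 without HSVTK DMSO replicate 1 or Control DMSO replicate 1.

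Of 33 histone genes 0 were called higher and 5 lower (0% higher and 15.2% lower, against 11.6 and 14.0% of all genes, so the lower share is near that of all genes). The 5 are linker histones, among them H1f0 (-1.65 ± 0.14 (SE)) and H1f5 (-2.76 ± 0.73 (SE)). Among 23 telomere genes 6 were higher, such as the helicase Rtel1 (0.91 ± 0.10 (SE)) and Stn1 (0.504 ± 0.12 (SE)), and 2 lower (26.1% higher and 8.7% lower). Of 34 genes for the metabolism and transport of nucleosides, to which ganciclovir belongs as an analogue, 5 were higher and 3 lower, a share of 23.5% called against 25.6% of all genes. The exporter Abcc5 (0.82 ± 0.09 (SE)), the transporter Slc29a3 (0.61 ± 0.14 (SE)) and the kinase Dtymk (0.39 ± 0.08 (SE)) were higher, and the kinase Uck2 (-0.35 ± 0.08 (SE)) lower. The cellular thymidine kinase Tk1, at -0.17 (adjusted p = 0.243, 95% interval -0.37 to 0.04), was not called. DNA methylation genes had 3 of 22 higher and 7 lower (13.6% higher and 31.8% lower), with Zfp57 (0.47 ± 0.08 (SE)) higher and Gadd45b (-0.94 ± 0.17 (SE)) lower.

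Of 36 ATF4 targets, which respond to amino acid shortage and unfolded protein, 12 were lower and 3 higher (8.33% higher and 33.3% lower, against 11.6 and 14.0% of all genes, as for the other lists here). The growth inhibitor Ddit4, also a HIF and p53 target, stood at 72.5 and 70.4 CPM with DMSO and 117 and 121 with GANC in the Control cells, and at 93.2 and 102 with DMSO and 64.7 and 62.7 with GANC in those labelled HSVTK, a difference of -1.35 ± 0.10 (SE, adjusted p = 2.99e-11). Pycr1 (-1.04 ± 0.10 (SE)) and Stc2 (-0.81 ± 0.10 (SE)) were lower and the transporter Slc7a3 (0.599 ± 0.08 (SE)) higher, while Atf4 was at 0.01 (adjusted p = 0.932, 95% interval -0.15 to 0.17). Of 20 heat shock genes 7 were higher, such as Hsph1 (0.499 ± 0.08 (SE)), Dnaja1 (0.39 ± 0.07 (SE)) and Hspb1 (0.38 ± 0.08 (SE)), and 4 lower (35% higher and 20% lower). Of 27 interferon and antigen presentation genes 6 were higher and 4 lower (22.2% higher and 14.8% lower), the lower share being near that of all genes. The RNA sensor Rigi stood at 75.1 and 75.2 CPM with DMSO and 61.5 and 64.7 with GANC in the Control cells, and at 38.7 and 41.8 with DMSO and 76.3 and 78.4 with GANC in those labelled HSVTK, a difference of 1.195 ± 0.10 (SE, adjusted p = 1.27e-09), and Irf9 was at 1.58 ± 0.21 (SE). The class I molecule H2-K1 was at -1.18 ± 0.14 (SE). Of 13 mitochondrially encoded genes 6 were higher and 1 lower (46.2% higher and 7.69% lower), with mt-Co2 at 0.797 ± 0.11 (SE). Of 48 nuclear genes of oxidative phosphorylation 3 were higher and 4 lower (6.25% higher and 8.33% lower), and 41 were not called. The mitochondrial share of counts was highest in HSVTK GANC, and its part was not tested. Ribosomal protein genes had 10 of 55 lower and 1 higher (1.82% higher and 18.2% lower), with differences of -0.30 to 0.29. Extracellular matrix genes had 12 of 35 lower and 7 higher (20% higher and 34.3% lower). Timp2 (-2.05 ± 0.35 (SE)) was lower, and the integrin subunits Itga8 (2.82 ± 0.59 (SE)) and Itgb5 (0.78 ± 0.14 (SE)) were higher.

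**Figure D5:**
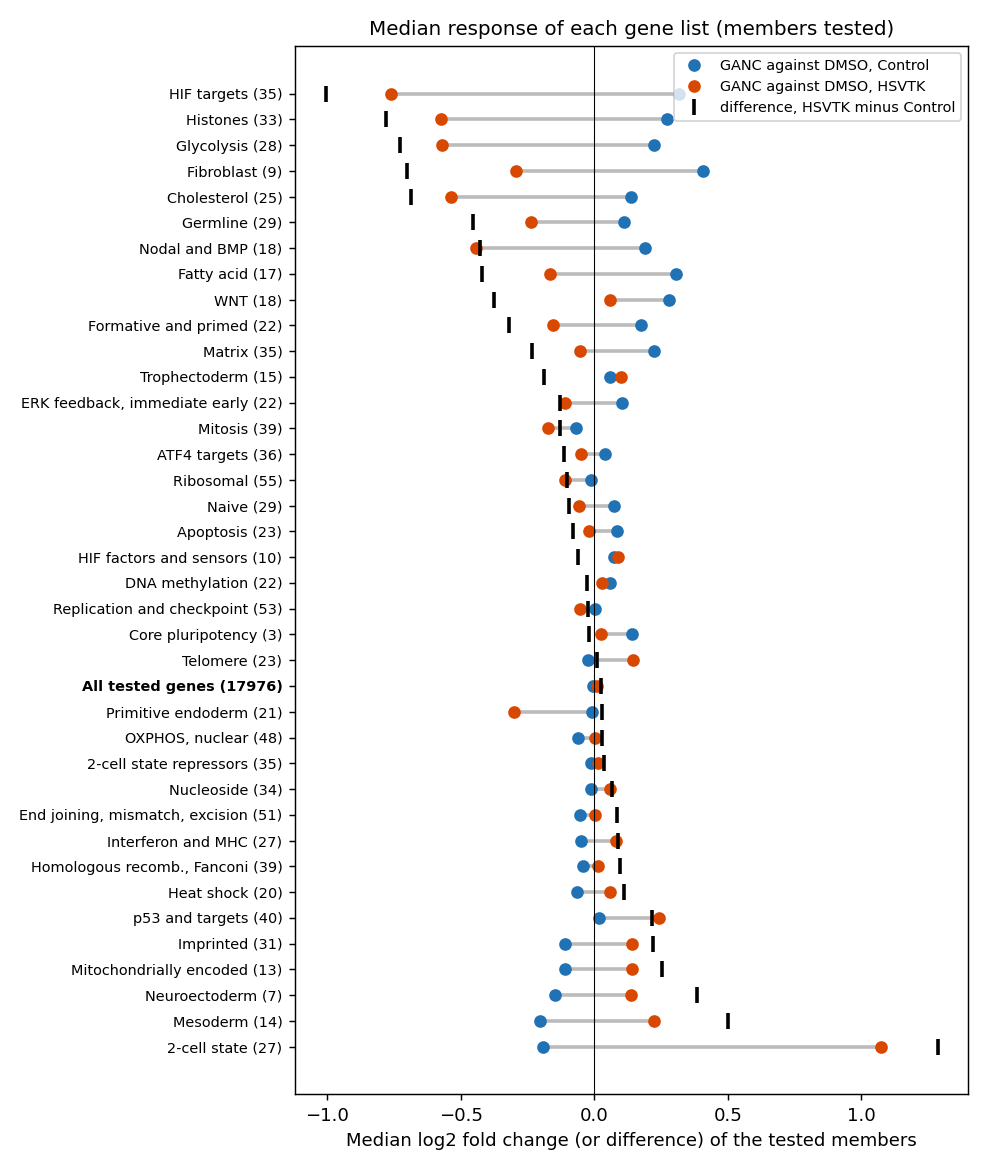
Median log2 fold change of GANC against DMSO in Control (blue) and HSVTK cells (orange) and median difference (black tick) of the tested members of 37 gene lists and of all tested genes (bold), with the number of members. The HIF target list has the lowest median difference (-1.01) and the 2-cell state list the highest (1.29), and the median over all tested genes is 0.02. Lists with few or weakly expressed members, such as histones and fibroblast markers, have medians with few calls behind them. Of the 27 members of the 2-cell state list 17 had a mean of at least 1 CPM, and its median was 0.48 with limma on log2(FPKM + 1).

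Among genes that met the naming rule, the 12 largest higher responses were in genes with a mean of at most 5.06 CPM. Larger differences outside the rule, up to 9.15, are not named. Nkx2-9, a homeobox factor, stood at 7.66 and 6.05 CPM with DMSO and 4.7 and 3.18 with GANC in the Control cells, and at 0.654 and 1.02 with DMSO and 4.25 and 3.17 with GANC in those labelled HSVTK, a difference of 2.93 ± 0.35 (SE, adjusted p = 4.56e-07). Its levels in HSVTK DMSO were below all others. Itga8 stood at 0.677 and 1.09 CPM with DMSO and 0.922 and 0.763 with GANC in the Control cells, and at 0.623 and 0.234 with DMSO and 2.76 and 3.05 with GANC in those labelled HSVTK, with HSVTK GANC above all others. Apol6, an apolipoprotein L, stood at 5.51 and 4.82 CPM with DMSO and 3.39 and 4.38 with GANC in the Control cells, and at 2.02 and 1.93 with DMSO and 9.2 and 9.24 with GANC in those labelled HSVTK, a difference of 2.64 ± 0.26 (SE, adjusted p = 2.03e-08). The melanocortin receptor Mc5r differed by 2.94 ± 0.31 (SE), Ms4a10 by 2.95 ± 0.57 (SE), Pkd1l2 by 2.79 ± 0.57 (SE), the vomeronasal receptor Vmn2r79 by 2.77 ± 0.54 (SE), the receptor Gpr83 by 2.63 ± 0.31 (SE), the sodium-glucose transporter Slc5a1 by 2.58 ± 0.32 (SE), the cadherin Cdh9 by 2.46 ± 0.38 (SE), the phosphodiesterase Pde3a by 2.41 ± 0.54 (SE) and Eif4a3l2 by 2.33 ± 0.45 (SE). Eif4a3l2 is a close copy of another gene, so its counts are uncertain. Here the rule required the 4 HSVTK library differences to lie above all 4 of Control, as 24.1% of all tested genes did.

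Among abundant genes, with a mean of at least 100 CPM, the strongest higher differences after Ccng1 were in Apoe, Car2, Ccar1, Clk1 and Cds2. The lipid carrier Apoe stood at 473 and 434 CPM with DMSO and 307 and 348 with GANC in the Control cells, and at 219 and 242 with DMSO and 375 and 359 with GANC in those labelled HSVTK, a difference of 1.14 ± 0.09 (SE, adjusted p = 2.64e-10). The carbonic anhydrase Car2 stood at 199 and 193 CPM with DMSO and 158 and 162 with GANC in the Control cells, and at 48.7 and 49.9 with DMSO and 86.6 and 80.1 with GANC in those labelled HSVTK, a difference of 1.05 ± 0.09 (SE, adjusted p = 1.42e-09), and was below Control in all 4 HSVTK libraries. The coactivator Ccar1 was at 0.98 ± 0.10 (SE), the splicing kinase Clk1 at 0.98 ± 0.10 (SE) and the phospholipid enzyme Cds2 at 0.95 ± 0.08 (SE). All 6 were opposed, lower in Control GANC and higher in HSVTK GANC than under DMSO.

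A shared response, called in both cell groups in the same direction with no call for the difference, was found for 104 genes, 55 higher and 49 lower with GANC. For 49 and 46 of them the 95% interval of the difference stayed within 1.5-fold either way. The matricellular gene Ccn2 stood at 37.6 and 37.7 CPM with DMSO and 24.5 and 25.3 with GANC in the Control cells, and at 38.6 and 34 with DMSO and 26.1 and 22.6 with GANC in those labelled HSVTK, with a difference of 0.02 (adjusted p = 0.936, 95% interval -0.25 to 0.29). Ccn1, its relative, fell with an HSVTK response of -0.87 and a Control response of -0.69. The phosphatase Dusp4 and Zfp951, Efhc2 and Nrip2 also fell in both. The ERK inhibitor Spry1 rose by 0.66 and 0.57, the calcium pump Atp2a3 by 0.69 and 0.61 and the glycosyltransferase Galnt6 by 0.602 and 0.69, in HSVTK and Control cells. Sdk1, Nfatc2 and Ankrd34a also rose in both. The count of 104 depended on the libraries. It was 25 and 35 without Control DMSO replicates 2 and 1, 41 without Control GANC replicate 2, 239 without Control GANC replicate 1, 47 and 52 without HSVTK DMSO replicates 2 and 1, and 56 without HSVTK GANC replicate 1.

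In 452 genes the difference came with a called Control response and no called HSVTK response, 198 higher and 254 lower in HSVTK than in Control cells. The costimulatory ligand Icosl stood at 47.1 and 54.7 CPM with DMSO and 31.1 and 30.6 with GANC in the Control cells, and at 30.4 and 33.7 with DMSO and 37.95 and 34.5 with GANC in those labelled HSVTK, so that it fell in Control GANC by 0.72 on the log2 scale, and the difference was 0.89 ± 0.13 (SE, adjusted p = 6.46e-06). The retinoic acid carrier Crabp2 differed by 1.24 ± 0.26 (SE), Stard8 by 1.201 ± 0.20 (SE) and the small nucleolar RNA Snord83b by 1.17 ± 0.31 (SE). Others rose in Control GANC. Tekt1, of the ciliary axoneme, stood at 1.94 and 2.09 CPM with DMSO and 5.26 and 3.98 with GANC in the Control cells, and at 5.76 and 5.58 with DMSO and 4.09 and 4.69 with GANC in those labelled HSVTK, a difference of -1.57 ± 0.28 (SE, adjusted p = 0.000128). Ift140, of transport within the cilium, was at -0.801 ± 0.15 (SE), Tsga10ip at -1.98 ± 0.47 (SE) and Stap2 at -1.09 ± 0.27 (SE). A call in 1 cell group and none in the other was read as a difference only where the difference itself was called.

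Called genes were spread over the chromosomes. The share called ran from 21.6% on chromosome 13 to 28.8% on chromosome 15 among the autosomes and was 23.5% on X. On the mitochondrial chromosome 8 of 16 genes were called, 7 of them higher. On the autosomes, median differences over genes with a mean of at least 1 CPM lay between -0.05 and 0.05.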

How the data were processed

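RNA sequencing of mouse embryonic stem cells came from 8 libraries, 2 in each of 4 groups taken from the labels. Without giving roles, the build GRCm39 and the tools DESeq2 1.40.2, featureCounts 2.0.1, HISAT2 2.1.0 and fastp 0.23.2 appear in the submitters' processing notes. The sources used here do not give annotation, strand or the treatment of reads with several matches, so overlapping, antisense and near-identical genes are uncertain. The authors deposited raw counts per gene for 57010 genes, 1606 of them without a symbol. The authors also deposited FPKM values, which equal the count over gene length and library total within 1e-05 for all 456080 values, as checked here. Libraries held 29704460 to 34184475 counts, and replicates differed by more than counting noise.

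The test was edgeR 4.0.16 (R 4.3.3), quasi-likelihood, on the deposited counts, with TMM scaling, filterByExpr by group and a mean per group over 8 libraries (4 residual degrees of freedom, biological coefficient of variation 6.31%). It kept 17976 genes. Adjusted p is Benjamini-Hochberg over all of them, called below 0.05. SE is the log2 value over the square root of F, and intervals are 95%. Differences are log2 values of the HSVTK minus the Control response. In simulated data with 200 changed genes of at least 1 CPM among 17976, the difference test recovered 7.5% of 1.25-fold, 49.5% of 1.5-fold and 77.5% of 2-fold changes. Far fewer genes changed there than were called in the data, so these rates hold for that setting, and recovery in the data was not tested. Alternatives were RLE and library size scaling, DESeq2 1.42.0, limma 3.58.1 (voom and log2(FPKM + 1) or log2(FPKM + 0.1)), other filters, a 1.5-fold test, a replicate block and leaving out each library. The linear CPM scale, and differences with the sign of the HSVTK response turned, were added after seeing the data.

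Named genes had to be called with the same sign by edgeR with TMM, RLE and library size scaling, DESeq2, limma on log2(FPKM + 1) and all 8 fits leaving out a library. The rule took the 12 largest differences each way (mean of at least 1 CPM, HSVTK and Control library differences not overlapping), the 6 largest each way above 100 CPM, and up to 4 members of each list with at least 3 calls. It passed over 4 model-number symbols. Always named were Zscan4c, Zscan4d, Zfp352, Pou5f1, Sox2, Nanog, Trp53, Cdkn1a, Mdm2, Tk1, Hif1a, Srebf2 and Atf4. For shared and Control-only responses it took up to 6 and 4 each way. Other list members given with a value alone were chosen after their values were seen. The 37 lists (1072 symbols, 971 genes tested) and the members were chosen with earlier results of these data known, and lists get counts and medians, with no set test. Promoter windows came from RefSeq on GRCm38.p6. Chromosomes came from GENCODE by Ensembl ID for 17556 genes (97.7%).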

Additional observations from a re-analysis of the deposited data

Results flagged for a closer look

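The responses of both cell groups differed for 4595 of 17976 genes, as tested on the difference itself. In 14 of the genes with the largest differences under the naming rule the responses were also opposed, each called on its own. Each gene went one way with GANC in HSVTK cells and the other way in Control cells. The difference was lower in HSVTK cells for Ndufa4l2 (-5.88), A2m (-5.15), Aoc3 (-4.69), Aurkc (-3.88), Egln3 (-3.83), Grin1 (-3.82), Loxl2 (-3.65), Irf8 (-3.46) and Pgm1 (-3.41). It was higher for Ms4a10 (2.95), Mc5r (2.94), Nkx2-9 (2.93), Gpr83 (2.63) and Eif4a3l2 (2.33). Values are log2, and their signs, sizes, order and opposed pattern rest on the labels of the HSVTK libraries. With those labels exchanged the 9 lower differences would be 0.032 to 1.74 and the 5 higher ones -1.34 to -0.28, values added after seeing the data and not tested. Of the 770 genes with both responses called, 654 were opposed as labelled. The edgeR call of the Control response was near the threshold for Ms4a10 (adjusted p = 0.04374), Irf8 (0.04397) and Eif4a3l2 (0.0487). The naming rule did not require the calls of single responses to hold in other analyses. Groups of 2 libraries are too small to look for outlying libraries.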

How the results depend on the processing

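RLE scaling, library size scaling, DESeq2 and limma voom kept every count of differences, responses and list members within 1.5 times. Of 3148 values for the 167 named genes under other settings, 3071 kept direction and side of the threshold, 69 lost the call (60 of them against a 1.5-fold difference), 8 gained it, and no called gene changed sign. Counts of genes are given in the order higher and lower difference, HSVTK response, Control response, opposed higher, opposed lower and shared. They were 1047, 1080, 2678, 47, 6, 17 and 4 (2127 differences in all) with limma on log2(FPKM + 0.1), 966, 1015, 2615, 29, 2, 14 and 0 (1981) on log2(FPKM + 1), and 303, 512, 486, 6, 0, 6 and 0 (815) against a 1.5-fold difference. With a mean FPKM of at least 1 the lower differences were 1608, Control responses 647, opposed 115 and 222 and shared 44. On the 4 Control libraries alone the Control response was 942. Leaving out each library gave 3415 to 4638 differences, 3313 to 5627 HSVTK and 433 to 2010 Control responses, 61 to 255 and 185 to 505 opposed and 25 to 239 shared genes.

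Called list members under log2(FPKM + 0.1), log2(FPKM + 1) and the 1.5-fold test were 7, 7 and 6 of the 2C genes, 7, 7 and 6 of the formative, 4, 3 and 1 of the mitosis and 6, 6 and 0 of the replication genes. They were 12 and 5 of the p53 targets under the last 2, and 12 of glycolysis, 8 of cholesterol and 4 of Nodal and BMP genes in the 1.5-fold test. Leaving out libraries gave 7 to 13 mitosis and 7 to 16 replication genes. Medians on log2(FPKM + 1) were -0.65 for glycolysis, -0.71 for HIF targets, -0.60 for cholesterol, 0.48 for 2C genes, -0.32 for Nodal and BMP, -0.10 for mitosis and -0.00068 for replication. With a mean FPKM of at least 1 they were -0.73 for HIF targets, -0.61 for cholesterol, 0.75 for 2C genes and -0.10 for mitosis. On log2(FPKM + 0.1) they were 1.11 for 2C genes, -0.11 for mitosis and -0.00058 for replication. The p53 median was 0.26 with voom and 0.26 above 1 CPM, where the 2C median was 1.11. Mitosis and replication medians were -0.10 and -0.00049 with library size scaling and -0.15 and -0.043 without a filter. Leaving out libraries, medians ran from -0.80 to -0.70 for glycolysis, -0.73 to -0.64 for cholesterol, 0.14 to 0.28 for p53 targets, -0.54 to -0.37 for Nodal and BMP, -0.16 to -0.10 for mitosis and -0.077 to -0.040 for replication. On the gene's own strand alone the motif shares were 30%, 28.2% and 8.57% for HIF, glycolysis and ATF4 lists. The cause of these changes was not tested.

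Replicate numbers are only a number: deviations of same-numbered libraries correlated at -0.06 to 0.02. With a replicate block 4433 differences were called, 2002 higher and 2431 lower, and no count moved by over 1.5 times. Of the 4595 called genes, 2 had the opposite sign on the linear CPM scale, none of them among the 1566. Below 1 CPM the smallest called difference was 1.58, and what size can be detected at this depth was not tested.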
